A study of Mus musculus with 18 samples.

Results

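Genes that make, spend and recycle glutathione, and genes that detoxify reactive oxygen, were measured in testes of hypogonadal (hpg) mice given recombinant follicle-stimulating hormone (FSH). Members were all genes on the array whose symbol begins with Gsta, Gstk, Gstm, Gsto, Gstp, Gstt, Gstz, Mgst, Gpx, Prdx or Txn, together with Sod1, Sod2, Sod3, Cat, Gclc, Gclm, Gsr, Gss, Nqo1 and Hmox1, where a probe set carried that symbol alone. The rule found 57 genes with 97 probe sets, out of 12393 named genes and 22626 probe sets tested. A probe set is a group of short oligonucleotides that together report 1 transcript, and the brightest probe set (the one with the highest mean over all arrays) stood for a gene. The symbols chose the members, though the rule was set with earlier results of these data known.

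Whole testes came from hpg males aged 10 weeks, which lack a working gonadotrophin-releasing hormone gene and therefore have immature testes with little FSH or luteinising hormone of their own. This deficiency is shared by treated mice and controls. Treated mice were dosed under the skin with 8 IU of recombinant FSH (Gonal F) in 0.2 ml of phosphate-buffered saline at 12 h intervals, over 12 h (4 mice), 24 h (3 mice) or 72 h (4 mice), and were killed 1 h after the last dose. The 7 control males were untreated, with no vehicle injection named in the labels. Each mouse gave 1 array of type MOE430A, so the spread between arrays holds the spread between animals. All levels are log2 values, and all changes are differences of log2 means, FSH minus controls, with the standard error (SE) of the fit.

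Glutathione is a small thiol made by glutamate-cysteine ligase (Gclc and Gclm) and glutathione synthetase (Gss), and it is kept reduced by glutathione reductase (Gsr). Glutathione transferases attach it to reactive compounds, glutathione peroxidases use it to reduce peroxides, and peroxiredoxins do the same with electrons from thioredoxin, which thioredoxin reductases recharge. Superoxide dismutases turn superoxide into hydrogen peroxide, which catalase and the peroxidases remove. In the testis, steroid synthesis in Leydig cells and the high metabolic rate of Sertoli cells, which carry the FSH receptor, are sources of reactive oxygen, and both cell types express glutathione transferases.

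The arrays fell into 2 technical sets, and control 6 stood apart from the others. A bacterial spike-in RNA (Dap) read 8.00 to 8.92 on the 12 arrays of 12 h, 72 h and controls 4 to 7, and 2.74 to 3.30 on the 6 arrays of 24 h and controls 1 to 3. Each time was therefore compared with the controls of its own set. In the main fit, levels were compared across sets only between the untreated controls, and some marker ranges are given over all groups. Control 6 held transcripts of spermatids, the haploid germ cells: Prm1 read 12.0 and Tnp1 11.7 in it, against 2.85 to 3.85 and 2.96 to 4.49 on the other 17 arrays. In control 6, 202 probe sets lay more than 2 above each of the other 3 controls of its set, whereas controls 4, 5 and 7 each had 1 to 3 such probe sets. The calls of members at 12 h and 72 h are given with and without this array. Among members not called, 8 changed sign at 12 h and 8 at 72 h without it, and 0 became called. Both times share these controls, so their values are not independent of each other. In control 1 the fat markers Adipoq and Fabp4 read 4.92 and 7.58, the highest of all arrays. The other fat markers measured, Lep and Cidec, were not raised in it. They read 2.16 and 2.59, against 2.19 and 2.69 in control 2 and 2.20 and 2.60 in control 3. The FSH response was present at every time, since Inha, the inhibin alpha chain of Sertoli cells, rose by 1.87 ± 0.11, 1.75 ± 0.13 and 1.94 ± 0.11 at 12, 24 and 72 h (limma adjusted p = 6.6e-07, 2.48e-06 and 3.79e-07). Of the Sertoli cell markers, Sox9 read 8.17 to 9.11 in the 5 groups and Clu 13.9 to 14.6, while Amh was at the floor (a mean of 1.57). The germ cell marker Dazl read 10.7 to 11.1.

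Of the 57 members, 19 were called at 1 or more times (33.3%, against 20.3% of all named genes) and 38 at none, where a call is a limma p below 0.05 after Benjamini-Hochberg adjustment over all 22626 probe sets. At 12 h, 7 members rose (12.3% of members, against 3.52% of all named genes) and 3 fell (5.26%, against 2.76%). At 24 h, 7 rose (12.3%, against 6.38%) and 4 fell (7.02%, against 8.45%). At 72 h, 9 rose (15.8%, against 4.23%) and 1 fell (1.75%, against 3.03%). The share of falling members was thus above that of all genes at 12 h and near or under it at 24 h and 72 h. The shares that rose were above those of all genes at every time. All named genes were counted with no filter on low values, and 47 of the 57 members had a mean of at least 4. Shares among genes of like brightness were not compared, and the members were chosen with earlier results of these data known. The median change over the members was 0.01 at 12 h, 0.06 at 24 h and 0.08 at 72 h, against -0.0048, 0.04 and 0.01 over all named genes, so the family did not move as a block. Gsta4, Gstp1 and Prdx2 rose and Txnip fell at all 3 times, though with quantile normalisation Gstp1 was called at none. Without control 6, 4 members rose and 2 fell at 12 h (background 2.7% and 2.58%), and 5 rose and 1 fell at 72 h (background 3.54% and 3.34%).

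**Figure D1:**
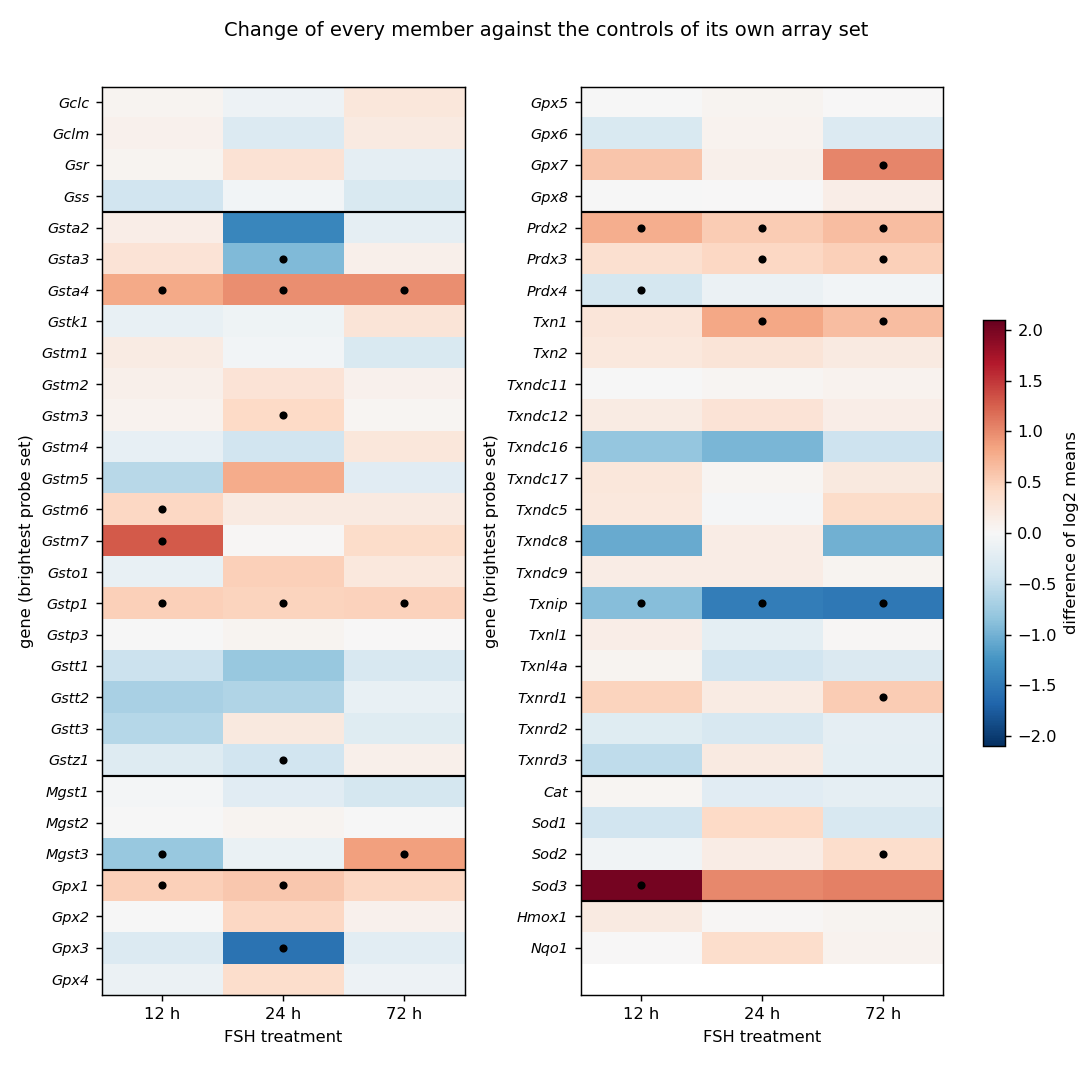
Difference of log2 means, FSH minus the controls of the same array set, for all 57 members at 12, 24 and 72 h (columns). Rows are genes in their role groups, separated by black lines, red is higher after FSH and blue lower, and dots mark calls. The strongest colours are Sod3 and Gstm7 at 12 h, Gpx3 and Gsta2 at 24 h and Txnip at 24 h and 72 h. Gsta2 carries no dot, nor do the 4 glutathione synthesis and reduction genes at the top of the left panel.

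Promoter windows are shown for 6 called members, 3 that hold the core of the antioxidant response element, the site bound by the transcription factor Nrf2 in many genes of this kind, and 3 of the 4 members called at all times, which hold none of the motifs searched. RefSeq windows (build GRCm38.p6, 250 bases before to 50 after a gene start) matched 49 of the 57 genes, with 65 windows. Gsta4, also called at all times, was not matched to a window. Gstm7 and Txnrd1 have further windows, not shown, that hold none of the motifs. Capitals mark the motif TGACNNNGC on either strand, and each sequence runs 5′ to 3′ on the gene's strand, with positions counted from the gene start.
Gstm7 (chr3:107931565-107931864, minus strand, motif from position -129): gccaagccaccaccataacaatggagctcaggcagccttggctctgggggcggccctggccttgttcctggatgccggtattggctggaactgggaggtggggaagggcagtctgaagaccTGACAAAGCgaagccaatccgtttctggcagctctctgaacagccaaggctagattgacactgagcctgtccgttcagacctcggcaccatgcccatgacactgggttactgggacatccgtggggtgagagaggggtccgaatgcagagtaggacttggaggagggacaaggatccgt
Txnrd1 (chr10:82858956-82859255, plus strand, motif from position -92, on the opposite strand): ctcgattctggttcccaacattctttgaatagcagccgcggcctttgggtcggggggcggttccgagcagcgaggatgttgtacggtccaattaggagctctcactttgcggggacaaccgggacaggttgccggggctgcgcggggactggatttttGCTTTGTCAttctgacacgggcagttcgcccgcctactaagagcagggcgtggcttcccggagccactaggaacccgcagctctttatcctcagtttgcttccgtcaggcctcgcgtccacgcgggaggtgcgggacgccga
Gsta3 (chr1:21240335-21240634, plus strand, motif from position -121): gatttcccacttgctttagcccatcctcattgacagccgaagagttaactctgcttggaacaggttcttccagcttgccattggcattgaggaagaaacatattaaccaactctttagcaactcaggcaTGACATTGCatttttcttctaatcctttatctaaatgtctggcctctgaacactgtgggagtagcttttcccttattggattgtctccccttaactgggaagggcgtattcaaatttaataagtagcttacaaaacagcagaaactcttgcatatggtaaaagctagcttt
Gstp1 (chr19:4037863-4038162, minus strand): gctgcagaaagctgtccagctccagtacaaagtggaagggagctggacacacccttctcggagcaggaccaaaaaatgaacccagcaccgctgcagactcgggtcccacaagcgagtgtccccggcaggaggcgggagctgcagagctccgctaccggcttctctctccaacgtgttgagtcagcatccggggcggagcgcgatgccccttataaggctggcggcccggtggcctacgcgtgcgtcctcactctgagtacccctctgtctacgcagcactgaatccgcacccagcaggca
Prdx2 (chr8:84969372-84969671, plus strand): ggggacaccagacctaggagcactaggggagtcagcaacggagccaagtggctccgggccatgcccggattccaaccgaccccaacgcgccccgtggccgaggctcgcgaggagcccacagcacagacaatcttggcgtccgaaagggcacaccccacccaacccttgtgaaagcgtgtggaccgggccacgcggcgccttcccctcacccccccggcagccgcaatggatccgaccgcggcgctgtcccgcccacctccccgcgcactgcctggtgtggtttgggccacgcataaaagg
Txnip (chr3:96557707-96558006, plus strand): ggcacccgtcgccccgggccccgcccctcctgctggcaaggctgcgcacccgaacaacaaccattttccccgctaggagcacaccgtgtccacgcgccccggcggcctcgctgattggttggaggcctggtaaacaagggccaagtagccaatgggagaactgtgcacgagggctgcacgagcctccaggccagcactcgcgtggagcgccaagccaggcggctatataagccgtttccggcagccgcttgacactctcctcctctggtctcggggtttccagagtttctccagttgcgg

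The TGACNNNGC core was in 9 of the 65 member windows (13.8%), and in 12.4% of all 32851 windows of this length. It was found in windows of Gclm, Gsta3, Gstm5, Gstm7, Mgst1, Sod1, Txndc11, Txndc5 and Txnrd1. The cAMP response element TGACGTCA, searched because FSH signals through cAMP, was in 0 member windows and in 1.79% of all windows. The E-box CACGTG, a letter string that several families of transcription factors bind, was in 4 member windows (6.15%) of Gpx6, Prdx4, Txndc5 and Txndc9, and in 7.15% of all. The first and second motif share the letters TGAC and cannot match from the same base. A match is a description of the letters in the window, and a missing match says only that these letters are not in it.

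Superoxide dismutases and catalase differed among themselves. Sod3, which encodes the secreted, extracellular superoxide dismutase, read 7.53, 8.15, 8.13 and 8.07 at 12 h, against 5.30, 6.85, 5.33 and 6.38 in controls 4 to 7. All 12 h arrays lay above all controls of their set, and controls 5 and 7 were higher than controls 4 and 6. The rise was 4.01-fold (2.01 ± 0.30, limma adjusted p = 0.000877), the largest of any member at any time. Without control 6 it was 3.47-fold (1.79 ± 0.30, adjusted p = 0.00299). At 72 h Sod3 read 6.70, 7.23, 7.09 and 7.06, inside the control range in 1 array, and its change of 1.06 ± 0.30 was not called (adjusted p = 0.0534). At 24 h it read 6.63, 6.80 and 6.32, against 5.41, 5.98 and 5.34 in controls 1 to 3. These 24 h arrays were all above their controls, and the change of 1.01 ± 0.35 was not called (adjusted p = 0.0684). The change at 72 h was not shown to differ from that at 12 h (-0.95 ± 0.30, adjusted p = 0.146). A second probe set of Sod3 gave 1.50 (adjusted p = 0.0231), 0.56 and 0.65 at 12, 24 and 72 h, called at 12 h only.

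Sod2, the manganese enzyme of mitochondria, read 10.59, 10.61, 10.43 and 10.46 at 72 h, against 9.94, 10.01, 10.39 and 10.25 in controls 4 to 7. The 72 h arrays were all above these controls by a small margin. The rise was 1.29-fold (0.37 ± 0.09, adjusted p = 0.0272), and 1.37-fold without control 6 (adjusted p = 0.00639). At 12 h Sod2 read 10.25, 10.12, 10.00 and 9.91, overlapping the controls, and 72 h was higher than 12 h by 0.45 ± 0.09 (adjusted p = 0.0186). At 24 h it read 9.81, 9.94 and 9.84, against 9.70, 9.69 and 9.76 in controls 1 to 3, with no call (adjusted p = 0.348). The 72 h call was lost with quantile normalisation and with the mean of a gene's probe sets. Neither the call against controls nor that against 12 h was made on the 12 arrays of that set alone (adjusted p = 0.066 against controls), and a second bright probe set gave 0.00, 0.43 and 0.27 with no call. Sod1, the copper and zinc enzyme of the cytosol, and Cat, which encodes catalase, were not called at any time. Sod1 changed by -0.41, 0.42 and -0.33. Its 24 h arrays read 12.8 to 12.9, against 11.0 in control 1 and 13.3 and 13.0 in controls 2 and 3, so 1 control sets its spread. Cat changed by 0.04, -0.24 and -0.18, while leaving out control 6 gave -0.18 after 12 h and -0.40 after 72 h, also without a call.

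**Figure D2:**
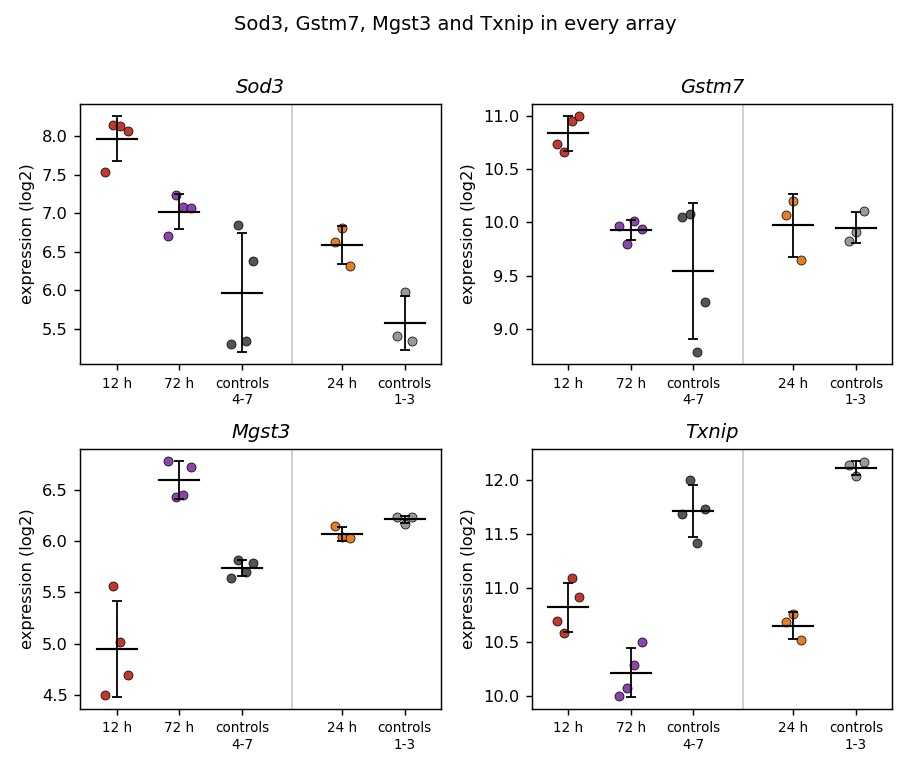
Log2 expression of Sod3, Gstm7, Mgst3 and Txnip in each array (points), with the group mean (line) and SD (bar), at 12 h and 72 h beside controls 4 to 7, and at 24 h beside controls 1 to 3 (right of the grey line). Sod3 and Gstm7 at 12 h lie above their controls, Mgst3 lies below them at 12 h and above them at 72 h, and all treated Txnip arrays lie below their controls.

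Among the 8 glutathione peroxidases, 3 were called. Gpx1, the common cytosolic peroxidase, read 9.97, 9.93, 10.18 and 10.24 at 12 h and 10.03, 9.89, 10.12 and 10.00 at 72 h, against 9.50, 9.93, 9.43 and 9.45 in controls 4 to 7. Control 5 stood above the other controls, level with the lowest treated arrays. The 12 h rise was 1.41-fold (0.50 ± 0.12, adjusted p = 0.0292), not called without control 6 (0.45, adjusted p = 0.0857), and the 72 h change of 0.43 was not called (adjusted p = 0.0564). At 24 h Gpx1 read 10.16, 10.31 and 9.76, against 9.47, 9.52 and 9.52 in controls 1 to 3. All treated arrays were above these controls, and the rise was 1.49-fold (0.57 ± 0.14, adjusted p = 0.0182).

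Gpx3, the peroxidase secreted into plasma and tissue fluid, had the largest fall among the members. It read 4.29, 3.53 and 3.44 at 24 h, against 5.23, 5.41 and 5.26 in controls 1 to 3, with no overlap. The level was 2.92-fold lower (-1.55 ± 0.27, adjusted p = 0.00206). At 12 h Gpx3 read 6.05, 5.94, 5.42 and 5.75 and at 72 h 6.42, 6.12, 5.62 and 5.29, against 5.77, 6.13, 6.27 and 6.14 in controls 4 to 7. These values overlapped, and the changes of -0.29 and -0.22 were not called. The 24 h change was not shown to differ from that at 12 h (-1.26 ± 0.36, adjusted p = 0.124).

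Gpx7, a peroxidase of the endoplasmic reticulum, read 4.98 to 5.91 at 72 h, against 4.03 to 4.97 in controls 4 to 7. The ranges nearly touched, and the rise was 2.04-fold (1.03 ± 0.27, adjusted p = 0.0333), or 1.86-fold without control 6, which was not called (adjusted p = 0.0924), nor was the rise with quantile normalisation. Gpx4, the phospholipid peroxidase that sperm also use as a structural protein, changed by -0.12, 0.38 and -0.10, and Gpx8 by -0.01, 0.00 and 0.15, with no call. Gpx2, Gpx5 and Gpx6 had means below 4, near the floor of the array, where a level is only a bound. Gpx5 is a product of the epididymis, and it read 2.08 to 2.26 on the treated arrays and 2.09 to 2.17 on the controls.

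Of the 3 peroxiredoxins measured, Prdx2 and Prdx3 rose and Prdx4 fell, not all at the same times. Prdx2, the abundant cytosolic form, read 11.43, 11.12, 11.25 and 11.25 at 12 h and 10.98, 11.25, 11.31 and 11.09 at 72 h, against 10.27, 10.93, 10.38 and 10.45 in controls 4 to 7. All treated arrays were above all controls, with control 5 close to the lowest of them. The rises of 1.69-fold at 12 h (0.75 ± 0.12) and 1.57-fold at 72 h (0.65 ± 0.12) were called (adjusted p = 0.00148 and 0.00455), also without control 6 (adjusted p = 0.00593 and 0.0154). At 24 h Prdx2 read 11.44, 11.23 and 11.21, against 10.77, 10.82 and 10.71 in controls 1 to 3. These groups did not overlap, and the rise was 1.44-fold (0.53 ± 0.14, adjusted p = 0.0233). Red blood cells hold much Prdx2. Of 9 listed red cell markers 4 were measured, and 0 of them were called at any time. All 4 had means below 4, near the floor of the array, so the lack of a call cannot decide whether red cells changed. Group means were 2.41 to 2.48 for Hba-a1, 1.95 to 1.98 for Alas2, 2.96 to 3.60 for Slc4a1 and 3.16 to 3.85 for Epb42, and the part of these cells in the Prdx2 values was not tested.

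Prdx3, the mitochondrial form, read 10.10, 10.34 and 10.22 at 24 h, against 9.78, 9.72 and 9.85 in controls 1 to 3. The rise was 1.35-fold (0.43 ± 0.11, adjusted p = 0.0162). At 72 h it read 9.96, 9.91, 9.89 and 9.98 and at 12 h 9.53, 10.00, 9.72 and 9.78, against 9.47, 9.60, 9.22 and 9.42 in controls 4 to 7. The 72 h arrays were all above these controls and 1 array of 12 h was not. The 72 h rise was 1.42-fold (0.51 ± 0.09, adjusted p = 0.00386, and 0.44 without control 6, adjusted p = 0.0113), while the 12 h change of 0.33 was not called (adjusted p = 0.0533). Prdx4, the form of the endoplasmic reticulum, read 10.26, 10.64, 10.35 and 10.42 at 12 h, against 10.81, 10.78, 10.99 and 10.58 in controls 4 to 7. Of the 12 h arrays, 1 lay inside the range of these controls, and the fall of 0.37 ± 0.10 (adjusted p = 0.0369) was not called without control 6 (adjusted p = 0.105). At 24 h Prdx4 read 10.54, 10.59 and 10.46, against 10.64, 10.78 and 10.56 in controls 1 to 3, and at 72 h 10.64, 10.94, 10.71 and 10.64, without a call. Its other probe sets were not called at any time.

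Txnip, the thioredoxin-interacting protein that binds and inhibits thioredoxin and limits glucose uptake, fell throughout. It read 10.69, 10.58, 11.09 and 10.92 at 12 h and 10.00, 10.08, 10.29 and 10.50 at 72 h, against 11.69, 12.01, 11.42 and 11.74 in controls 4 to 7. At 24 h it read 10.68, 10.76 and 10.52, against 12.14, 12.03 and 12.17 in controls 1 to 3. Every treated array was below every control of its set. The level was lower by 1.86-fold after 12 h, 2.75-fold after 24 h and 2.82-fold after 72 h (-0.89 ± 0.14, -1.46 ± 0.16 and -1.50 ± 0.14, with limma adjusted p of 0.00104, 4.78e-05 and 1.47e-05). Without control 6 the 12 h and 72 h changes were -0.99 and -1.59, both called. The change after 72 h minus that after 12 h was -0.60 ± 0.14 (adjusted p = 0.0306). This difference was not called without a set term, on the 12 arrays of the set alone, with the mean of both probe sets, or in 5 of the 18 fits that left out an array (adjusted p up to 0.108). Its second probe set gave -1.03, -1.06 and -1.46, called at 72 h only (adjusted p = 0.0713, 0.0634 and 0.0105), and its difference between 72 h and 12 h was not called (-0.42, adjusted p = 0.803).

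Txn1, thioredoxin itself, read 11.09, 11.48 and 10.94 at 24 h, against 10.29, 10.56 and 10.25 in controls 1 to 3. It was higher without overlap, 1.75-fold (0.81 ± 0.18, adjusted p = 0.00885). At 12 h it read 11.12, 10.61, 10.74 and 10.80 and at 72 h 10.95, 11.23, 11.36 and 11.36, against 10.75, 10.82, 10.32 and 10.38 in controls 4 to 7. The 72 h arrays were above these controls and the 12 h arrays overlapped them. The 72 h rise was 1.58-fold (0.66 ± 0.15, adjusted p = 0.0198), not called without control 6 (0.57, adjusted p = 0.0583), and the 12 h change was 0.25. Txnrd1, the cytosolic thioredoxin reductase whose promoter window is printed above, read 6.85 to 7.34 at 72 h, against 6.40 to 6.97 in controls 4 to 7. Control 4 lay inside the treated range. The rise was 1.45-fold (0.53 ± 0.14, adjusted p = 0.0333), not called without control 6 (0.49, adjusted p = 0.0865), and changes of 0.47 and 0.18 at 12 h and 24 h were not called.

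The other 12 of the 15 genes related to thioredoxin, including the mitochondrial Txn2 and Txnrd2 and the testis form Txnrd3, were not called by their brightest probe sets. Probe sets disagreed for several of them. The dimmest of 3 probe sets of Txn2 rose at every time, by 0.46, 0.47 and 0.38 (adjusted p = 0.00148, 0.00247 and 0.0053), while the brightest gave 0.22, 0.27 and 0.19. A second probe set of Txnrd2 fell by 1.13 at 24 h (adjusted p = 0.0385), where the brightest gave -0.33. A dimmer one of Txndc17 fell by 0.50 at 24 h (adjusted p = 0.0352), where the brightest gave 0.03. Dim probe sets of Txnl1 rose by 0.28 and 0.21 at 24 h, where the brightest gave -0.20, and one of Txnrd1 rose by 0.48 at 24 h (adjusted p = 0.0101). Txndc16, the member of this group with the largest change not called at 24 h, was at -0.96 ± 0.39 (adjusted p = 0.111). Txndc11 and Txndc8 had means below 4.

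No gene of glutathione synthesis and reduction was called. Gclc and Gclm, the 2 subunits of the rate-limiting ligase, changed by 0.05, -0.11 and 0.24 and by 0.09, -0.29 and 0.19 at 12, 24 and 72 h. Gss changed by -0.40, -0.06 and -0.33, with adjusted p of at least 0.246. Gsr changed by 0.06, 0.30 and -0.19, and its second probe set was called at 24 h (0.30 ± 0.09, adjusted p = 0.0421). Hmox1 (0.19, 0.02 and 0.06) and Nqo1 (0.01, 0.37 and 0.08), textbook targets of Nrf2, were not called either, and Nqo1 had a mean below 4.

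Of the 18 cytosolic and mitochondrial glutathione transferases, 7 were called at some time. Gsta4, the alpha-class enzyme that removes 4-hydroxynonenal, an aldehyde of lipid peroxidation, rose at every time. It read 12.28, 12.00, 11.99 and 12.00 at 12 h and 12.14, 12.15, 12.50 and 12.24 at 72 h, against 11.24, 11.37, 11.20 and 11.31 in controls 4 to 7. At 24 h it read 12.25, 12.10 and 11.97, against 11.12, 11.15 and 11.10 in controls 1 to 3. No treated array came near a control. The rise was 1.73-fold after 12 h, 1.97-fold after 24 h and 1.97-fold after 72 h (0.79 ± 0.09, 0.98 ± 0.10 and 0.98 ± 0.09, with limma adjusted p of 6.04e-05, 2.97e-05 and 1.11e-05). Without control 6 it was 0.76 at 12 h and 0.95 at 72 h, both called, and the calls also held on the arrays of each set alone.

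Gsta3, which in human and several other species catalyses a step of steroid synthesis besides detoxification, read 8.31, 7.81 and 7.61 at 24 h, against 8.75, 8.81 and 8.93 in controls 1 to 3. It was 1.89-fold lower without overlap (-0.92 ± 0.17, adjusted p = 0.0026). At 12 h it read 9.27, 9.07, 8.93 and 9.35 and at 72 h 9.12, 8.84, 8.99 and 8.98, against 8.57, 9.07, 8.80 and 9.05 in controls 4 to 7. These groups overlapped, with changes of 0.28 and 0.11 that were not called. Gsta3 was the 1 member whose change at 24 h, against its own controls, differed from that at 12 h (-1.20 ± 0.22, adjusted p = 0.0224), where 0.928% of all named genes were called. A dim second probe set gave -0.25 at 24 h with no call. Gsta2, of the same class, had a change of -1.37 ± 0.50 at 24 h that was not called (adjusted p = 0.0838), with arrays between 6.70 and 8.77, against 8.32 to 9.74 in controls 1 to 3.

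**Figure D3:**
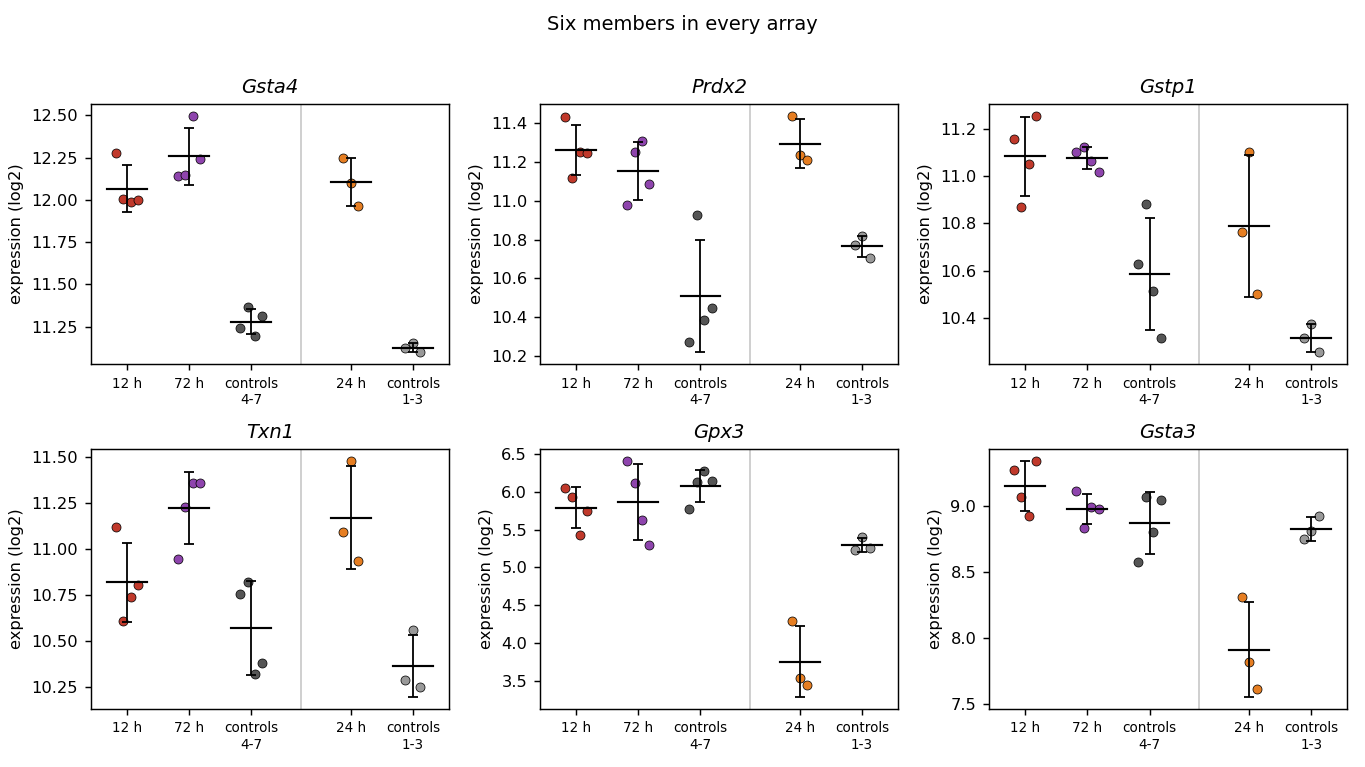
Log2 expression of Gsta4, Prdx2, Gstp1, Txn1, Gpx3 and Gsta3 in each array (points), with the group mean (line) and SD (bar), at 12 h and 72 h beside controls 4 to 7, and at 24 h beside controls 1 to 3 (right of the grey line). Gsta4 lies above its controls in all treated arrays, and Gpx3 and Gsta3 lie below theirs at 24 h only.

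The mu-class genes lie side by side in the genome and are close in sequence, so a probe set may also bind a neighbour's transcript, and this cross-reaction was not tested. Gstm7 read 10.73, 10.66, 10.95 and 11.00 at 12 h and 9.97, 9.80, 10.01 and 9.94 at 72 h, against 10.05, 10.08, 8.78 and 9.25 in controls 4 to 7. The 12 h arrays were above all of these controls, the 72 h arrays lay among them, and control 6 was the lowest. The 12 h rise was 2.45-fold (1.29 ± 0.23, adjusted p = 0.00356), or 2.05-fold without control 6 (1.04 ± 0.18, adjusted p = 0.00467). At 24 h Gstm7 read 10.07, 10.20 and 9.64, against 9.82, 9.91 and 10.11 in controls 1 to 3, a change of 0.02. The difference between 72 h and 12 h, -0.91 ± 0.23, was not called (adjusted p = 0.0594). Gstm6 read 11.48, 11.47, 11.39 and 11.71 at 12 h, against 11.28, 11.10, 10.84 and 11.12 in controls 4 to 7. It rose 1.35-fold without overlap (0.43 ± 0.10, adjusted p = 0.0194), not called without control 6 (0.35, adjusted p = 0.055). At 24 h it read 11.30, 11.15 and 10.98, against 10.88, 10.96 and 11.00 in controls 1 to 3, and at 72 h 11.27, 11.39, 11.32 and 11.08, with no call.

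Gstm1 was not called against controls (0.18, -0.05 and -0.32), but it was lower at 72 h, with 12.26 to 12.59, against 12.78 to 13.04 at 12 h (-0.50 ± 0.12, adjusted p = 0.0472). Its 3 other probe sets gave -0.47, -0.39 and -0.49 in that comparison, and the second of these was called (adjusted p = 0.021). The call of the brightest probe set was lost without 12 h replicate 3 or 4 and without 72 h replicate 1 or 2. Gstm3 read 4.33, 3.82 and 4.24 at 24 h, against 3.68, 3.71 and 3.73 in controls 1 to 3. It rose 1.34-fold (0.42 ± 0.09, adjusted p = 0.00692), but its mean over all arrays was below 4 and its second probe set gave 0.05. At 12 h Gstm3 read 3.77, 3.70, 3.70 and 3.73 and at 72 h 3.71, 3.70, 3.66 and 3.69, against 3.65, 3.64, 3.60 and 3.70 in controls 4 to 7, with no call. Gstm2, Gstm4 and Gstm5 were not called.

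Gstp1, the pi-class transferase, read 11.16, 10.87, 11.05 and 11.25 at 12 h and 11.10, 11.12, 11.06 and 11.02 at 72 h, against 10.63, 10.88, 10.52 and 10.31 in controls 4 to 7. At 24 h it read 10.76, 11.10 and 10.50, against 10.31, 10.38 and 10.25 in controls 1 to 3. Control 5 reached the lowest 12 h array, and the groups were apart at the other times. The rise was 1.41-fold, 1.39-fold and 1.41-fold at 12, 24 and 72 h (0.50 ± 0.13, 0.47 ± 0.15 and 0.49 ± 0.13), each near the threshold (adjusted p = 0.033, 0.0455 and 0.0319). Without control 6 the 12 h and 72 h rises were not called (adjusted p = 0.0822 and 0.0752), and at 24 h the call was lost when any of 14 single arrays was left out. Gstz1, which also acts in tyrosine breakdown, read 6.26 to 6.63 at 24 h, against 6.67 to 6.88 in controls 1 to 3, and fell by 0.40 ± 0.12 (adjusted p = 0.0381). The theta-class Gstt1 and Gstt2 had changes of -0.46, -0.79 and -0.34 and of -0.68, -0.63 and -0.15, with no call. Gstk1 of mitochondria and Gsto1 were not called, and Gstp3 and Gstt3 had means below 4.

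Mgst3, a microsomal transferase that also has peroxidase activity towards lipid hydroperoxides, was the 1 member that moved in opposite directions. It read 4.50, 5.57, 5.02 and 4.70 at 12 h and 6.78, 6.43, 6.45 and 6.72 at 72 h, against 5.64, 5.81, 5.70 and 5.79 in controls 4 to 7. All 12 h arrays were below and all 72 h arrays above these controls, which differed by less than either change. It was 1.73-fold lower after 12 h (-0.79 ± 0.17) and 1.82-fold higher after 72 h (0.86 ± 0.17), both called (adjusted p = 0.0107 and 0.00582). The 72 h level was 3.14-fold that of 12 h (1.65 ± 0.17, adjusted p = 0.000119), a comparison without controls. Both calls held without control 6 (-0.80 and 0.85, adjusted p = 0.0245 and 0.016). At 24 h Mgst3 read 6.15, 6.04 and 6.03, against 6.23, 6.17 and 6.23 in controls 1 to 3, a change of -0.14 that was not called (adjusted p = 0.638). A second probe set of Mgst3 averaged 2.34, at the floor. Mgst1 changed by -0.04, -0.24 and -0.38 with no call, and Mgst2 had a mean below 4.

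Between 72 h and 12 h, 2 members were higher (Mgst3 and Sod2, 3.51% of members, against 1.76% of named genes) and 2 lower (Txnip and Gstm1, 3.51%, against 1.1%). Untreated controls 1 to 3 were also set against controls 4 to 7, a comparison that holds the array set and the differences between these animals, controls 1 and 6 included. In that comparison Gsr, Prdx3 and Sod1 were higher (5.26%, against 3.05%) and Sod2 and Txndc17 lower (3.51%, against 5.79%), by between -0.43 and 1.24. Sod1 had means of 12.5 against 11.2, but control 1 read 11.0, within the 11.0 to 11.4 of controls 4 to 7, and only controls 2 and 3 (13.3 and 13.0) lay above. The number of members called between control sets was 1 without control 2, 3 or 4.

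Control 6 differed from controls 4, 5 and 7 in several members that had no call. Txndc8, a thioredoxin of spermatids, read 7.13 in control 6, against a mean of 2.67 ± 0.06 (SD) in the other 3 controls of the set. Gpx6 read 3.13 in it, against 1.89 ± 0.02. Gpx4 read 11.02, against 10.10 ± 0.08, Gstm5 12.42, against 10.69 ± 0.75, and Txnrd3 9.06, against 8.12 ± 0.46. These 5 genes were higher in control 6 than in each other control of the set. Their 12 h and 72 h changes without control 6 were between -0.30 and 0.20, and those with it were all below 0, so their negative sign with all controls rests in part on this array. In control 5, 38 of 47 members with a mean of at least 4 lay above their group mean, by 0.14 on average, and in the other 17 arrays this count was 14 to 30.

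**Figure D4:**
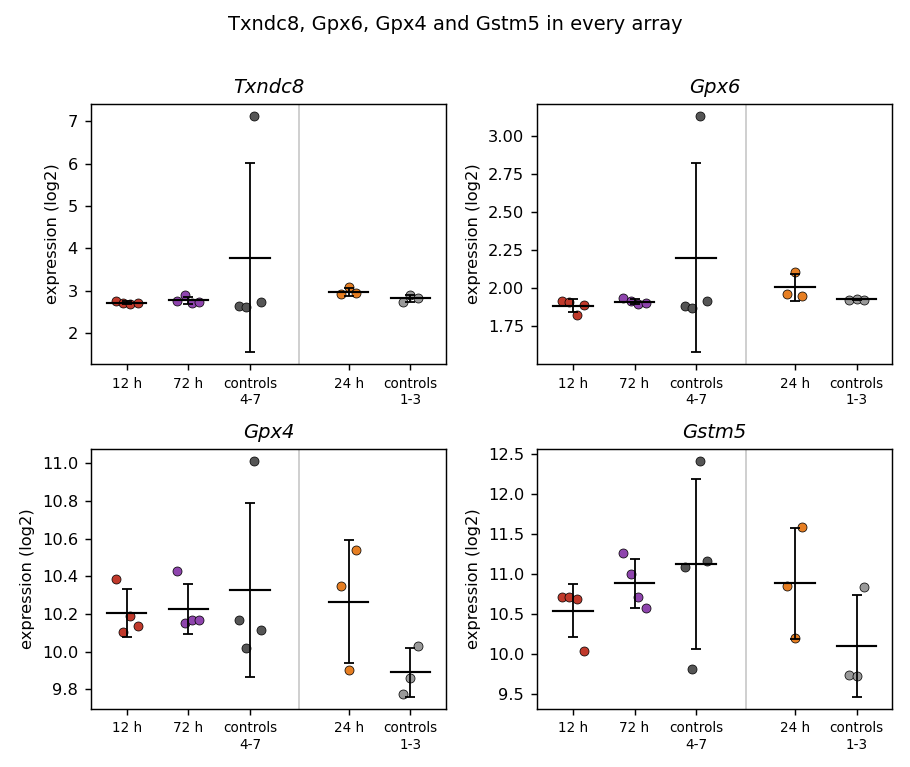
Log2 expression of Txndc8, Gpx6, Gpx4 and Gstm5 in each array (points), with the group mean (line) and SD (bar). In each panel the highest point of controls 4 to 7 is control 6, at 7.13, 3.13, 11.02 and 12.42.

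Markers of several cell types moved with the treatment, and in whole testis fewer cells of a type and less RNA per cell cannot be told apart. The markers named here were chosen after their values were seen. Of 10 Sertoli cell markers, 1 rose and 1 fell at 12 h, 3 rose and 2 fell at 24 h, and 3 rose and 1 fell at 72 h. Fshr, the FSH receptor, fell by 1.10, 1.24 and 1.11 at 12, 24 and 72 h, all called, and Dmrt1 by 0.62 at 24 h. Rhox5, a homeobox gene, rose by 4.13 at 24 h and 4.27 at 72 h. The mean level of this list was 7.75 to 7.91 at 12 h and 8.30 to 8.51 at 72 h, against 7.73 to 8.02 in controls 4 to 7, and 7.96 to 8.09 at 24 h, against 7.66 to 7.79 in controls 1 to 3. The 72 h mean holds the rises of Rhox5, Inha (1.94) and Shbg (1.22). Sox9, Wt1, Clu, Dmrt1 and Gata4 changed by -0.61, -0.27, -0.11, -0.06 and -0.10 at 72 h, with no call. Of 7 measured Leydig cell markers, 2 rose and 0 fell at 12 h, 3 rose and 1 fell at 24 h, and 0 rose and 1 fell at 72 h. The falls were of Hsd11b1, by 0.76 and 0.71 (adjusted p = 0.039 and 0.0455), and its mean over all arrays was 3.05, near the floor. Star, which brings cholesterol into mitochondria, rose by 2.53 and 2.50 at 12 h and 24 h, and Cyp17a1, an enzyme of androgen synthesis, by 2.86 and 4.62. The mean level of the Leydig list was 6.91 to 7.31 at 12 h and 6.04 to 6.56 at 72 h, against 5.61 to 6.54 in controls 4 to 7, and 6.75 to 7.40 at 24 h, against 5.69 to 5.86 in controls 1 to 3. Of 9 macrophage markers, Cd68 and Mrc1 rose at 72 h (1.34 and 0.79) and Csf1r fell at 12 h and 24 h (-0.85 and -0.73), with list means of 5.77 to 6.08 at 12 h and 6.39 to 6.72 at 72 h, against 5.79 to 6.39 in controls 4 to 7. Of 6 early germ cell markers, 2 fell at 24 h, Stra8 and Kit, and 1 at 72 h, Stra8. None of the 5 peritubular myoid and 5 endothelial markers was called with all arrays, and without control 6 Tek fell by 0.44 at 12 h (adjusted p = 0.0345). The part of these cells in the changes of the members was not tested.

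Related genes of the same chemistry were taken from a list of 97, of which 84 were measured. At 12 h 7 rose and 7 fell, at 24 h 8 rose and 10 fell, and at 72 h 11 rose and 7 fell, with medians of 0.0024, 0.07 and 0.05. These are 8.33% and 8.33% at 12 h (against 3.52% and 2.76% of all named genes). At 24 h they are 9.52% and 11.9% (against 6.38% and 8.45%), and at 72 h 13.1% and 8.33% (against 4.23% and 3.03%). The list was chosen with earlier results of these data known, and genes of like brightness were not compared. These shares are therefore a description. Without control 6, 6 rose and 5 fell at 12 h (background 2.7% and 2.58%), and 8 rose and 5 fell at 72 h (background 3.54% and 3.34%). The 8 genes with the smallest p are named. Ptgr1, a reductase of prostaglandins and reactive alkenals, rose by 1.43 ± 0.16, 1.28 ± 0.18 and 0.94 ± 0.16 at 12, 24 and 72 h. Nqo2, a quinone reductase, rose by 1.29 ± 0.15, 1.04 ± 0.18 and 0.72 ± 0.15. Abcc1, which pumps glutathione conjugates out of cells, rose by 0.72 ± 0.09, 0.65 ± 0.11 and 0.36 ± 0.09. All 9 of these changes were called, with adjusted p between 6.52e-05 and 0.0362, and that of Abcc1 at 72 h was not called without control 6 (0.33, adjusted p = 0.0893). Selenop, the plasma carrier of the selenium that glutathione peroxidases need, fell by 1.24 ± 0.16, 1.64 ± 0.19 and 0.79 ± 0.16 (adjusted p = 0.000282, 7.52e-05 and 0.00845). Aldh3a2, a dehydrogenase of fatty aldehydes, fell by 0.82 ± 0.18, 1.24 ± 0.21 and 1.19 ± 0.18 (adjusted p = 0.016, 0.00178 and 0.00126).

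Of 10 measured enzymes that supply the reductant NADPH, 3, 2 and 3 rose at 12, 24 and 72 h and 0 fell. Among all named genes 3.52%, 6.38% and 4.23% rose. Without control 6, 2 of these enzymes rose at 12 h and 2 at 72 h (background 2.7% and 3.54%). Pgls, of the pentose phosphate pathway, rose by 0.42 ± 0.10, 0.97 ± 0.12 and 0.53 ± 0.10, called at all 3 times. Mthfd2, a mitochondrial folate enzyme, was at 0.24 after 12 h (adjusted p = 0.317), and its rises of 0.77 ± 0.13 after 24 h and 0.93 ± 0.11 after 72 h were called. Atox1, a copper chaperone, rose by 0.75 ± 0.10 at 72 h only (adjusted p = 0.000448). Of 9 regulators of the antioxidant response, 0 rose at any time, 3 fell at 24 h and 1 fell at 72 h, where 8.45% and 3.03% of all named genes fell. With lists this short, these counts are a description. Nfe2l2, which encodes Nrf2, was at -0.25 ± 0.14 at 12 h (adjusted p = 0.449) and fell by 0.81 ± 0.16 at 24 h and by 0.73 ± 0.14 at 72 h (adjusted p = 0.00507 and 0.00588). Keap1, its inhibitor, changed by 0.13, -0.03 and 0.19 with no call. Nfe2l1 and Bach1 were the other regulators called lower at 24 h, at -0.67 ± 0.18 and -0.81 ± 0.25 (limma adjusted p = 0.0282 and 0.0471).

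**Figure D5:**
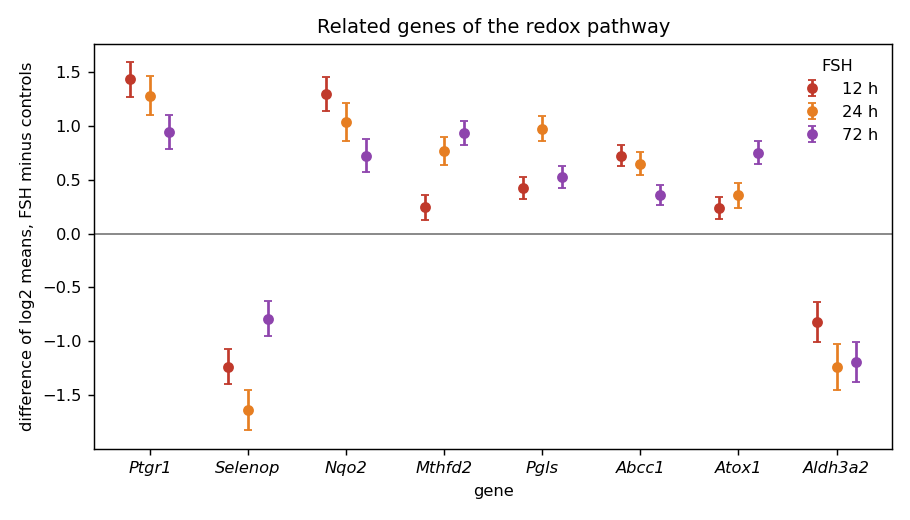
Difference of log2 means, FSH minus the controls of the same array set, with its SE (bars), for 8 related genes (horizontal axis) at 12, 24 and 72 h. Ptgr1, Nqo2 and Abcc1 lie above 0 and Selenop and Aldh3a2 below 0 at all times, and Mthfd2 and Atox1 are highest at 72 h.

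The 24 h calls rest on 3 arrays against 3 and borrow the spread of the other 12. On the 6 arrays of that set alone, 2 of the 11 calls were made, Gsta4 (adjusted p = 0.0164) and Txnip (adjusted p = 0.0112), while Gpx3 (0.0613), Gsta3 (0.0978) and Txn1 (0.1) had the same changes without a call. Leaving out single arrays, the number of members called was 6 to 11 at 12 h (6 without 12 h replicate 4 or control 6), 7 to 13 at 24 h (7 without control 1) and 5 to 12 at 72 h (5 without 72 h replicate 2).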

How the data were processed

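Total RNA from whole testes was hybridised to 1-colour Affymetrix MOE430A arrays, from 8 micrograms of RNA per mouse per the labels' protocols. The authors deposited a single table of log2 values. RMA and GCRMA, which correct background, normalise between arrays and combine probes, are named in the submitters' processing notes, and the choice between them was not given in the sources used here, like their versions. The log2 scale was read from the range of the values, 1.04 to 15.2. Array medians were 4.44 to 4.63. After removal of 64 control probe sets, 22626 of 22690 were tested with no filter on low values. The platform annotation gives 20380 of these 1 symbol, 691 several and 1555 none, and only the first were named. The number of arrays limits the precision, and a level near the floor gives only a bound.

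The fit was limma 3.58.1 (lmFit and eBayes, two-sided) in R 4.3.3 on all 18 arrays, with a mean each for 12 h, 24 h, 72 h, controls 1 to 3 and controls 4 to 7, and 13 residual degrees of freedom. P values were adjusted by Benjamini-Hochberg over all probe sets. The script was tested on simulated data. Members called at any time were named, the 16 with the smallest p with every array, the others by role, along with 8 genes of the related list. Members and lists were chosen with earlier results of these data known. Alternatives were no set term, each set alone, quantile normalisation, a minimum mean of 4, the mean of a gene's probe sets, replicate blocks and leaving out each array.

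Replicate numbers are shared by the groups, but the labels do not say that they mark a litter or day. Deviations of same-numbered arrays of 24 h and controls 1 to 3 correlated at 0.179, 0.343 and 0.406, each above 0.1, so that pairing was fitted too, chosen after seeing the data. Those of 12 h and 72 h gave 0.107, 0.13, 0.013 and 0.068, and were not taken as paired.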

Additional observations from a re-analysis of the deposited data

Results flagged for a closer look

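For each of the 19 called members, the groups of 4 arrays (12 h, 72 h and controls 4 to 7) were checked for a single array far from the rest. Of these 57 groups 4 had one, where chance gives about 1 in 20. The Gsta4 level in 12 h replicate 1 was 12.28, with the nearest array of the group at 12.00, and the other 3 lay together. The Sod3 level in 12 h replicate 1 was 7.53, below the nearest at 8.07, and still above all controls of its set. The Gpx1 level in control 5 was 9.93, with the nearest control of its set at 9.50, and it alone reached the treated range. The Txnrd1 level in control 4 was 6.97, with the nearest at 6.50.

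Members whose change differed between times by a test of the difference itself were Mgst3, Sod2, Txnip, Gstm1 and Gsta3. Mgst3 was higher at 72 h than at 12 h by 1.65 (limma adjusted p = 0.000119), higher in 4 of 4 arrays than every 12 h array. Sod2 was higher by 0.45 (adjusted p = 0.0186), a call lost without a set term, on the arrays of the set alone, with the mean of a gene's probe sets and in 4 of the 18 fits that left out an array. The Txnip difference was -0.60 (adjusted p = 0.0306), a call lost in the same alternatives and in 5 of those 18 fits. The Gstm1 difference was -0.50 (adjusted p = 0.0472). Without 12 h replicate 3 or 4, or 72 h replicate 1 or 2, the 1 member called between these times was Mgst3, so the Gstm1 call was lost. Gsta3 at 24 h against its own controls differed by -1.20 from its change at 12 h (adjusted p = 0.0224), a call lost with the mean of its probe sets, with a replicate block over all groups and without 12 h replicate 4.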

How the results depend on the processing

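All 35 calls of members called against controls, including the 4 of their differences between times, kept their direction under every alternative that could be run. With a minimum mean of 4, 34 of 34 held, without a set term 31 of 35, with the mean of a gene's probe sets 30, and with quantile normalisation 28, where Gstp1 at all 3 times, Gpx7 and Sod2 at 72 h and Gstm3 and Gstz1 at 24 h were lost. Without a set term 21 members and 33 related genes were called at 24 h, 20 members differed between 24 h and 12 h and 2 between 72 h and 12 h. In that fit the 24 h comparisons also hold differences between the array sets. The share of all named genes called in it was not counted, so these counts are no result about the members. On the arrays of 1 set alone 2 members and 5 related genes were called at 24 h, 2 members between 72 h and 12 h, and 21 of 34 calls held. With the mean of all probe sets of a gene, 2, 0 and 2 members were called between 72 h and 12 h, between 24 h and 12 h, and between control sets. A replicate block over all groups kept 15 of the 35 calls and lost 20, among them Gsta4, Mgst3 and Prdx2 at 12 h and 72 h and Txnip at 12 h. It left 1 and 2 members and 2 and 3 related genes called at 12 h and 72 h, and 0 members between 24 h and 12 h or between control sets. That block uses up most of these comparisons, since controls 4 to 7 share only number 4 with 12 h and 72 h. The replicate block within the unspiked set, where numbers appeared paired, kept 35 of 35 calls, with 16 members called at 24 h.

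Leaving out single arrays, the counts of members called were 6 to 11 at 12 h, 7 to 13 at 24 h, 5 to 12 at 72 h, 1 to 5 between 72 h and 12 h, 0 to 3 between 24 h and 12 h and 1 to 6 between control sets. Counts of related genes were 8 to 13, 13 to 20 and 13 to 19. In single members, every call of Gsta4, Mgst3 and Txnip against controls held in all of these fits, as did Sod3 and Gstm7 at 12 h, Gpx3, Gsta3 and Txn1 at 24 h, Prdx2 at 12 h and 72 h and Prdx3 at 72 h. The Gpx1 12 h call was lost in 5 of them and the Gstp1 24 h call in 14. Signal near the floor limits the 10 members with a mean below 4, whose changes may be understated. Small shifts also occurred there. At 24 h Gpx5, Gpx6, Gstp3, Nqo1 and Txndc8 lay above their controls without overlap and without a call, while Gpx2, Gstt3, Mgst2 and Txndc11 overlapped theirs. Some markers near the floor, Lep and Lcn8 among them, also lay above controls 1 to 3 at 24 h, and others, such as Slc4a1, overlapped them. The share of all named genes without overlap was not counted, so this is no trait of the members. The fat marker Cidec, with a mean of 2.64, rose by 0.49 at 24 h and was called (limma adjusted p = 0.014). The Gstm3 call at 24 h has this limit too.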
